A study of Mus musculus with 6 samples.

Results

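The genes described here encode ATP-dependent chromatin remodellers, their accessory subunits and other proteins of the same name families. They were taken from the platform annotation by symbol: all genes whose name begins with Smarca to Smarce, Arid1 to Arid5 or Ino80, the genes Chd1 to Chd9, and Bptf, Hells, Atrx, Ep400 and Srcap. Of 43 matching symbols, 41 had a probe set that names no other gene, and these 41 are the members, of 19937 genes measured. The other 2 symbols, Ino80e and the pseudogene Smarca5-ps, occur only on probe sets shared by several genes and were not used. The members comprise 12 SWI/SNF genes, 3 ISWI genes, 9 CHD genes, 6 genes of the INO80, SRCAP and TIP60 complexes, 4 other ATPases of the SNF2 family, and 7 genes of the ARID3, ARID4 and ARID5 groups, which encode DNA-binding proteins with an AT-rich interaction domain and are not remodelling ATPases.

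Chromatin remodellers use the energy of ATP hydrolysis to slide, evict or exchange nucleosomes, and they are classed by their ATPase. SWI/SNF complexes open regulatory DNA, ISWI and CHD enzymes largely space nucleosomes or act with histone deacetylases, and INO80-type complexes exchange histone variants. Embryonic stem cells use a particular SWI/SNF assembly, called esBAF, built on the ATPase Smarca4 with Smarcc1, Smarcd1 and Arid1a, and members such as Smarca5, Chd1, Chd4 and Ino80 are known to be needed for their self-renewal or differentiation.

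The data were 6 one-colour Affymetrix arrays of a mouse V6.5 embryonic stem cell line grown with serum and LIF on DR4 feeder cells. In all 6 samples the endogenous Ctnnb1 gene, which encodes β-catenin, was knocked in with a biotin and 3xFLAG tag, and the line expressed the biotin ligase BirA. Of the samples, 3 were given the GSK3 inhibitor CHIR99021 (3 µM) for 24 h, which stabilises β-catenin, and 3 were given XAV939 for 24 h, a tankyrase inhibitor that stabilises Axin and thereby lowers β-catenin. The XAV939 dose was 3 µM in the sample labels and 1 µM in the treatment protocol. All samples are of this 1 line, no untreated array was analysed here, and the labels do not say whether replicates were separate cultures, so a difference cannot be assigned to either compound and the tests measure the spread between these arrays.

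Values are log2 levels per probe set after RMA, a method that corrects the background, equalises the arrays and summarises the probes. They can be set against each other between arrays for the same gene, not between genes. Axin2, a direct target of β-catenin, had log2 levels of 7.48, 7.41 and 7.54 with CHIR99021, against 5.46, 5.79 and 5.46 with XAV939, in the direction the labels give. The 10 embryonic stem cell markers examined, among them Pou5f1, Sox2 and Nanog, all lay at or above the 89.3rd percentile of level of all probe sets. Of these 10, Esrrb (0.60), Nanog (0.49) and Zfp42 (0.25) were higher on the log2 scale with CHIR99021, and Utf1 (-0.67), Tdgf1 (-0.63) and L1td1 (-0.36) were lower. The other 4 did not pass the threshold, an adjusted p of 0.05 by limma. Among all genes 5.31% were higher and 4.34% lower. Of 18 markers of feeder fibroblasts, 8 (44.4%) were higher with CHIR99021, 0 lower and 10 not past the threshold. Their mean log2 level was 6.47 to 6.51 on the CHIR99021 arrays, against 6.19 to 6.29 on the XAV939 arrays. Of these 18, 6 (Dcn, Lum, Postn, Pdgfra, Prrx1 and S100a4) had levels in the lower 50% of probe sets. The part of the feeder cells, or of the change in the stem cell markers, in the differences below was not tested, and in such bulk samples fewer cells of a type and less RNA per cell cannot be told apart. XAV939 replicate 1 stood apart from the other XAV939 arrays on the second principal component (17.5% of the variance). CHIR99021 replicate 3 was shifted the same way from the other CHIR99021 arrays (4.70, against -2.65 and -2.48). Among the members XAV939 replicate 1 was above both other XAV939 arrays for 17 genes, below both for 19 and between them for 5.

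More chromatin remodelling genes fell than rose with CHIR99021 relative to XAV939, led by Smarca1, Chd9 and Chd7. Of the 41 members, 10 fell, 1 rose and 30 did not pass the threshold, an adjusted p of 0.05 by limma with adjustment over the whole table. Among all genes 9.65% passed in either direction. Of the members 24.4% fell, against 4.34% of all genes tested, and 2.44% rose, against 5.31%. By level, 2 of 41 members lay in the lower 50% of probe sets. This cutoff does not show that the other 39 were well expressed. The array medians over probe sets (5.67 to 5.71) were lower than those over genes (6.04 to 6.10). Among genes at or above the cutoff 6.78% fell and 8.54% rose, against 10 and 1 of 39 members. The difference was negative for 31 members (75.6%), against 47% of all genes, and the median log2 difference was -0.088 for the members and 0.0066 for all genes. The arrays of the 2 treatments were fully separated for 20 members (background 25.1%), 19 of them with CHIR99021 below (background 11.0%) and 1 with CHIR99021 above (background 14.1%). The members were chosen with results of these arrays known, so these counts are a description of the group. The count of members that fell changed when 1 array was left out. It was 6 without CHIR99021 replicate 1, CHIR99021 replicate 2, XAV939 replicate 2 or XAV939 replicate 3, 7 without CHIR99021 replicate 3 and 12 without XAV939 replicate 1. All genes called, in either direction, numbered 1395 without CHIR99021 replicate 1 and 1254 without CHIR99021 replicate 2, against 1924 with all arrays. The range over all removals is given in the closing section. The share of all genes lower was not counted at these settings. Whether the members moved apart from the whole table therefore cannot be told from these counts. Smarca1, Chd9, Chd7, Ino80 and Arid2 were lower under all 17 alternatives run for single genes.

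**Figure D1:**
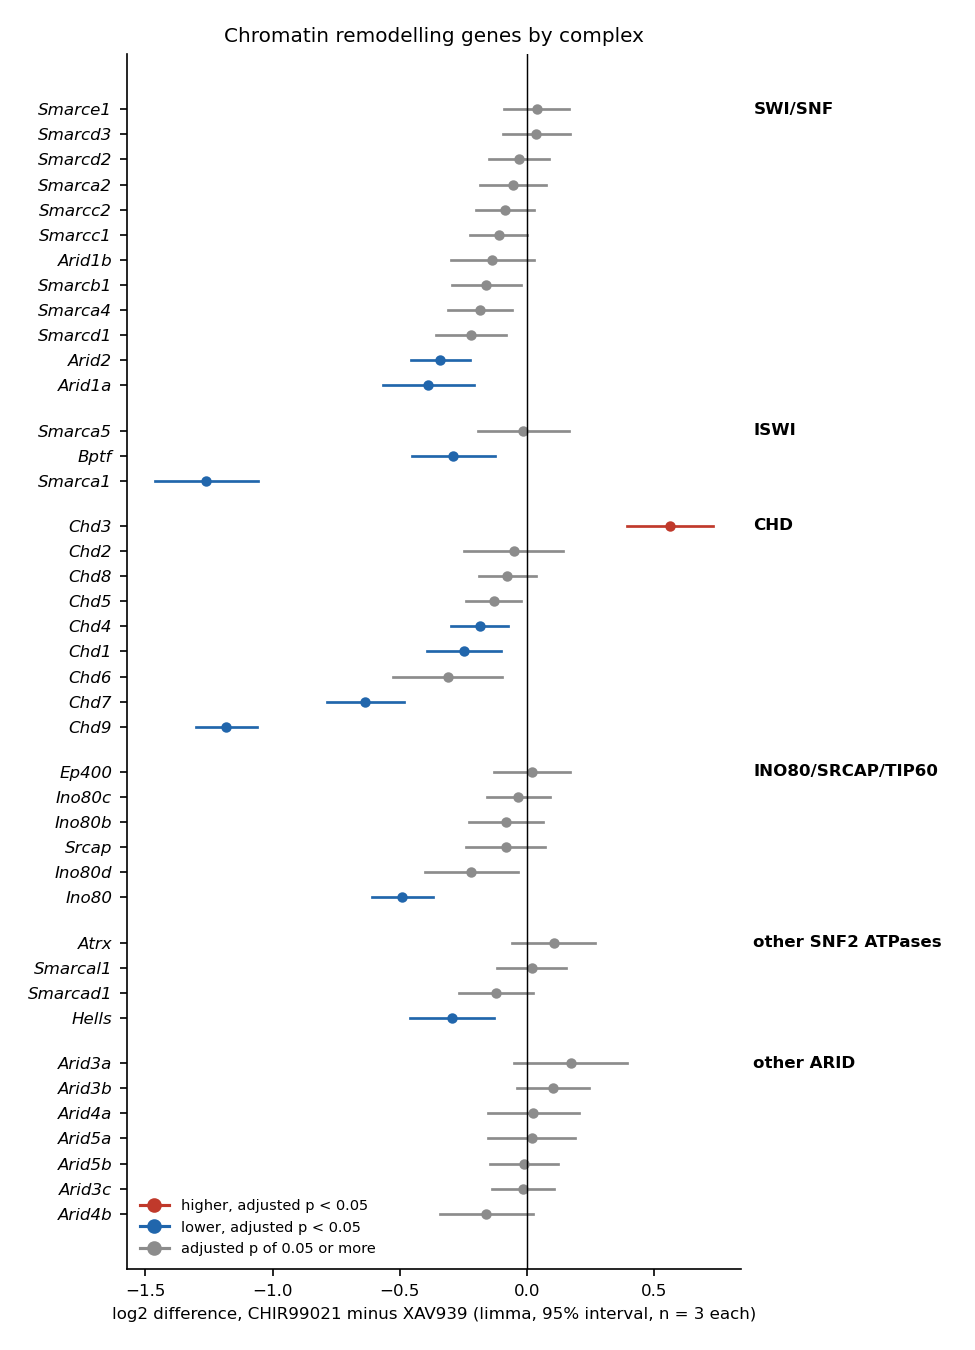
Log2 difference, CHIR99021 minus XAV939, of the 41 members, grouped by complex (horizontal axis; points are limma estimates from 3 arrays per treatment, lines 95% intervals). Most points lie left of 0, Smarca1 (-1.26) and Chd9 (-1.18) lie farthest out, and Chd3 (0.56) is the member that rose.

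Within the ISWI group, which holds the nucleosome-spacing ATPases, Smarca1 fell and its paralogue Smarca5 did not pass the threshold. Smarca1 (probe set 10604347) encodes SNF2L, an ISWI ATPase best known from neural tissue. Its log2 levels were 6.02, 5.98 and 5.99 with CHIR99021, against 7.03, 7.28 and 7.45 with XAV939. The CHIR99021 arrays lay close together, and every XAV939 array was about 1 log2 unit or more above them. With CHIR99021 the levels of Smarca1 lay just below the median over genes of each array (6.07, 6.07 and 6.09). No detection call was examined, and RMA compresses differences of dim genes. Smarca1 fell 2.40-fold, by a log2 difference of -1.26 ± 0.09 (SE, adjusted p = 1.32e-05), which ranked 37 of all genes by size. Smarca5 (probe set 10579915) encodes SNF2H, the ISWI ATPase that early embryos depend on. It had log2 levels of 10.40, 10.41 and 10.36 with CHIR99021, against 10.20, 10.53 and 10.48 with XAV939. The treatments overlapped, and the XAV939 values spread more widely. The log2 difference of Smarca5 was -0.014 ± 0.081 (SE, adjusted p = 0.962), with a 95% interval from -0.19 to 0.17.

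Bptf (probe set 10392318), the largest subunit of NURF, the remodelling complex built on Smarca1, was also lower. Its log2 levels were 8.41, 8.60 and 8.38 with CHIR99021, against 8.65, 8.84 and 8.76 with XAV939. The groups did not overlap, though the highest CHIR99021 array came close to the lowest XAV939 array. Bptf fell by 0.29 on the log2 scale (SE 0.073, adjusted p = 0.0328), and its other probe set gave -0.35. Leaving out CHIR99021 replicate 1, CHIR99021 replicate 3, XAV939 replicate 2 or XAV939 replicate 3 ended the call of Bptf (adjusted p = 0.0993 to 0.127).

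Promoter sequences are shown for the paralogues Smarca1, which fell by more than any other member, and Smarca5, whose groups overlapped. They are the 250 bases before the start of each gene in RefSeq (GRCm38.p6), at chrX:47892614-47892863 (minus strand) for Smarca1 and chr8:80739460-80739709 (minus strand) for Smarca5. Capitals mark the GC box, the site of Sp-type factors (GGGCGG, either strand), and the CCAAT box (CCAAT, either strand).
Smarca1: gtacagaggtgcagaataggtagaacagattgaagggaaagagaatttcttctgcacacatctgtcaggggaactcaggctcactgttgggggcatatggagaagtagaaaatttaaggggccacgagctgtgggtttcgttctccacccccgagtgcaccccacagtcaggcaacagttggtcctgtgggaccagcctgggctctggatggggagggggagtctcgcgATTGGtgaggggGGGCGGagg
Smarca5: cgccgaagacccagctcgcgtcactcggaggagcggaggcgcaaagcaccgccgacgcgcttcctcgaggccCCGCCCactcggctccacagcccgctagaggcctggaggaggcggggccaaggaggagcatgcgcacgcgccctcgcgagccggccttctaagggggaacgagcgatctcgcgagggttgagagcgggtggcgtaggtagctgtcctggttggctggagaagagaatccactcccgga
The Smarca1 promoter held 6 CpG dinucleotides, against 29 in that of Smarca5. Over all member promoters the median was 21, and over all promoters of the table, which include those of noncoding genes, it was 6. The table had an entry for 31 of the 41 members, with 37 promoters in all, since it lists several starts for some genes, and a listed start need not be the outermost of its gene. Shares below are of promoters of this length. The letters searched for TCF/LEF, the DNA-binding partners of β-catenin, were CTTTGAT and CTTTGAA on either strand. They occurred in 1 of the 37 (Ino80b, 2.7%), in none of the 7 members that fell and have an entry, and in 7.48% of all promoters. The GC box occurred in 29 of the 37 (78.4%) and in 32.7% of all promoters. Counted by gene, it was in at least 1 promoter of 26 of the 31 members with an entry. These include each of the 7 members that fell and have an entry. For Chd9 and Ino80, which are among the 7, the listed start lies inside the annotated gene. The CCAAT box occurred in 10 of the 37, including Ino80, Chd4 and Smarca1, and in 33.8% of all promoters. Letters of ETS factors (CCGGAAG), the TATA box (TATAAA) and the E-box (CACGTG) occurred in 4, 2 and 1 of the 37, and in 6.91%, 12.4% and 6.02% of all promoters. No marked GC box overlapped a marked CCAAT box. A match or its absence describes these windows alone.

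The CHD family, named for a chromodomain joined to a helicase-type ATPase, held the most changes by count. In it 4 of 9 members were lower, 1 was higher and 4 were not past the threshold. Among all genes 4.34% were lower and 5.31% higher. Chd9 and Chd7 belong to one subfamily with Chd6 and Chd8. Chd9 (probe set 10573823), a little-studied member described in mesenchymal progenitors, had log2 levels of 7.93, 7.90 and 7.84 with CHIR99021, against 9.02, 9.12 and 9.08 with XAV939. Both groups were tight and more than 1 log2 unit apart. Chd9 fell 2.27-fold (-1.18 ± 0.05, SE, adjusted p = 5.43e-07). Chd7 (probe set 10503210), which binds enhancers in embryonic stem cells and is mutated in CHARGE syndrome in humans, had log2 levels of 8.89, 8.86 and 8.68 with CHIR99021, against 9.50, 9.46 and 9.38 with XAV939. No array of one treatment reached the range of the other. Chd7 fell 1.55-fold (-0.64 ± 0.07, SE, adjusted p = 1.74e-04).

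Chd8, which is known to bind β-catenin and restrain its target genes, had log2 levels of 8.91, 8.92 and 8.89 with CHIR99021, against 8.96, 8.97 and 9.02 with XAV939. The groups did not overlap, but the log2 difference was only -0.077 (95% interval -0.19 to 0.034, adjusted p = 0.466). Chd6 had log2 levels of 7.23, 7.18 and 7.15 with CHIR99021, against 7.25, 7.54 and 7.70 with XAV939, and XAV939 replicate 1 lay close to the CHIR99021 arrays. Its log2 difference of -0.31 ± 0.10 (SE) did not pass (adjusted p = 0.0760), while without XAV939 replicate 1 it was -0.43 (adjusted p = 0.00227).

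Chd3 and Chd4, ATPases of the NuRD deacetylase complex, went in opposite directions. Chd3 (probe set 10387316) had log2 levels of 7.49, 7.44 and 7.62 with CHIR99021, against 7.10, 6.87 and 6.89 with XAV939. All CHIR99021 arrays were above all XAV939 arrays. Chd3 rose 1.48-fold (0.56 ± 0.08, SE, adjusted p = 7.76e-04) and was the member that rose. Chd4 (probe set 10541803), the main NuRD ATPase of embryonic stem cells, had log2 levels of 10.51, 10.55 and 10.58 with CHIR99021, against 10.73, 10.71 and 10.76 with XAV939. The difference was small and the groups did not overlap. Chd4 fell by 0.19 on the log2 scale (SE 0.050, adjusted p = 0.0435), and the call was lost without any 1 of the 6 arrays (adjusted p = 0.0522 to 0.160). Chd5, the neural NuRD ATPase, differed by -0.13 ± 0.05 (SE, log2, adjusted p = 0.146).

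Chd1 (probe set 10441987), which keeps chromatin of embryonic stem cells open, had log2 levels of 9.34, 9.36 and 9.32 with CHIR99021, against 9.45, 9.62 and 9.68 with XAV939. The CHIR99021 arrays again varied less than the XAV939 arrays. Chd1 fell by 0.25 on the log2 scale (SE 0.065, adjusted p = 0.0389). The call was lost without any 1 array other than XAV939 replicate 1 (adjusted p = 0.109 to 0.145). Its paralogue Chd2 had log2 levels of 8.29, 8.25 and 8.18 with CHIR99021, against 8.07, 8.44 and 8.37 with XAV939, overlapping groups, and a difference of -0.052 ± 0.087 (SE, adjusted p = 0.836).

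**Figure D2:**
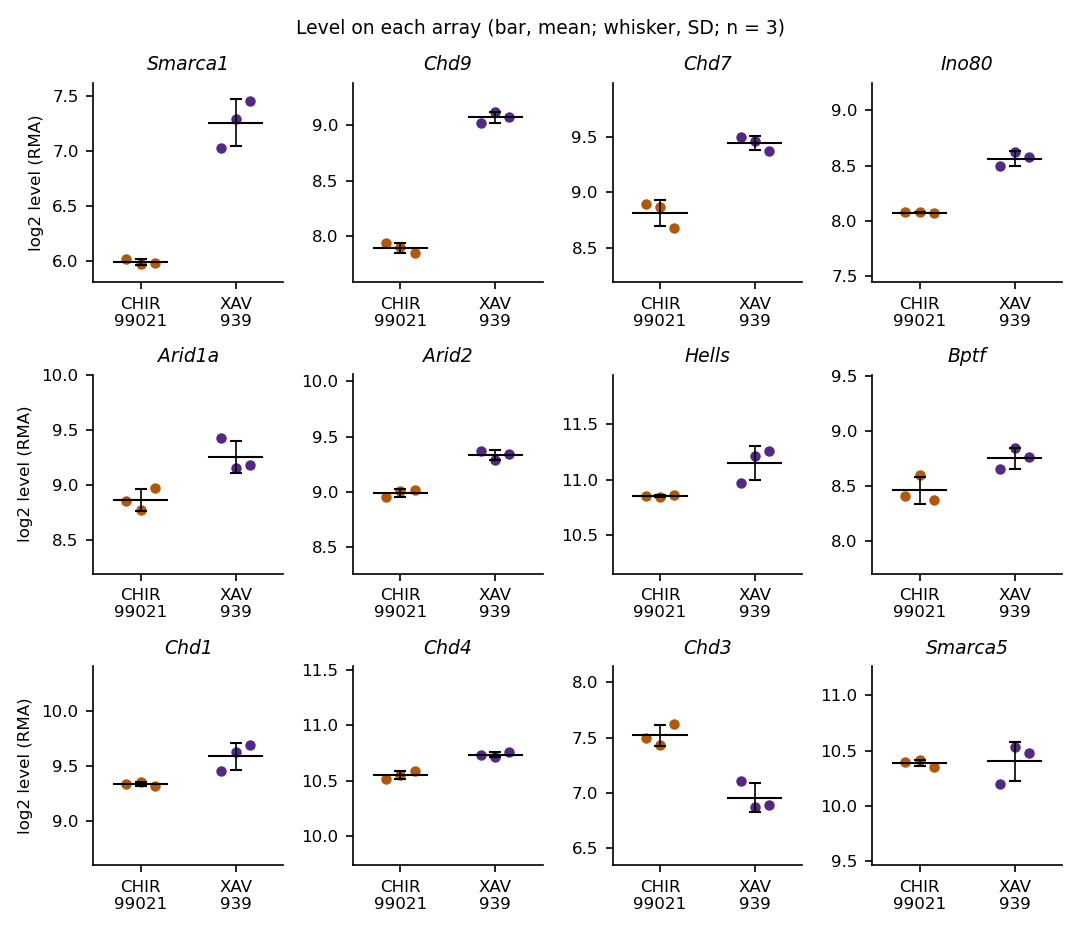
Log2 level on each array (points) of the 11 members past the threshold and of Smarca5, with the mean (bar) and SD (whisker) of 3 arrays per treatment; all panels span the same number of log2 units. Smarca1 and Chd9 show the widest gaps between treatments, Chd3 has its CHIR99021 points on top, and the Smarca5 groups overlap.

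Chd7 is represented by 30 probe sets that name no other gene, which gives a repeated reading of the same transcripts within these arrays. All 30 log2 differences were negative, from -0.81 to -0.38 with a median of -0.62, and 27 passed an adjusted p of 0.05 when all 34760 probe sets were tested. The 3 that did not pass had differences between -0.49 and -0.38. The probe sets share the samples and the gene and are not replicates. Their mean log2 levels ran from 6.15 to 9.13. Smarce1, a SWI/SNF subunit with 3 probe sets, gave differences from -0.031 to 0.082, and the other probe set of Chd6, at a mean log2 level of 4.98, gave -0.027.

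**Figure D3:**
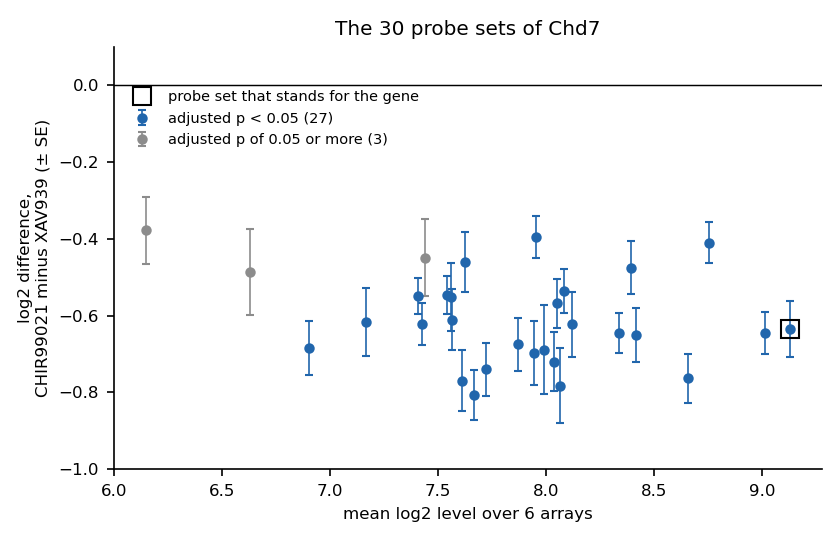
Log2 difference, CHIR99021 minus XAV939 (vertical axis, ± SE of the fit), of the 30 Chd7 probe sets against their mean log2 level over 6 arrays (horizontal axis). All 30 points lie below 0, between -0.81 and -0.38.

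In the INO80, SRCAP and TIP60 group, 1 of 6 members fell and 5 did not pass, where 4.34% of all genes fell. Ino80 (probe set 10486203), the ATPase of the INO80 complex, had log2 levels of 8.08, 8.08 and 8.07 with CHIR99021, against 8.49, 8.62 and 8.58 with XAV939. The CHIR99021 arrays were nearly equal and all lay below the XAV939 arrays. Ino80 fell 1.40-fold (-0.49 ± 0.05, SE, adjusted p = 2.02e-04). Its complex subunits Ino80b, Ino80c and Ino80d had log2 differences of -0.083, -0.034 and -0.22, and none passed (adjusted p = 0.148 to 0.831). Ep400, the ATPase of the TIP60 complex, differed by 0.020 ± 0.067 (SE, log2) and Srcap, which loads the histone variant H2A.Z, by -0.084 ± 0.070.

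Among SWI/SNF genes, 2 of 12 members fell and 10 did not pass, where 4.34% of all genes fell. Both that fell encode ARID subunits, which define the kind of SWI/SNF complex. Arid1a (probe set 10517090), the ARID subunit of esBAF, had log2 levels of 8.85, 8.78 and 8.97 with CHIR99021, against 9.42, 9.16 and 9.18 with XAV939. XAV939 replicate 1 was the highest array, and the groups did not overlap. Arid1a fell 1.31-fold (-0.39 ± 0.08, SE, adjusted p = 0.0114), a call lost without CHIR99021 replicate 2 (adjusted p = 0.0619). Arid2 (probe set 10426507), the ARID subunit of the PBAF form, had log2 levels of 8.95, 9.01 and 9.02 with CHIR99021, against 9.37, 9.29 and 9.34 with XAV939. Each group was tight. Arid2 fell 1.27-fold (-0.34 ± 0.05, SE, adjusted p = 0.00182). Arid1b, the paralogue that takes the place of Arid1a in some complexes, had log2 levels of 7.40, 7.43 and 7.53 with CHIR99021, against 7.75, 7.50 and 7.53 with XAV939, and differed by -0.14 ± 0.07 (SE, adjusted p = 0.353).

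The ATPases and the other subunits of SWI/SNF did not pass the threshold. Smarca4 (BRG1), the ATPase of esBAF, had log2 levels of 9.43, 9.39 and 9.51 with CHIR99021, against 9.68, 9.58 and 9.62 with XAV939. The groups did not overlap, and the difference of -0.18 ± 0.06 (SE) did not pass (adjusted p = 0.0724). Smarcd1 (BAF60a), another esBAF subunit, had 8.99, 8.86 and 9.07 with CHIR99021, against 9.21, 9.18 and 9.18 with XAV939. It lay at the edge of the threshold, with a log2 difference of -0.22 ± 0.06 (SE, adjusted p = 0.0507), and without CHIR99021 replicate 3 it passed at -0.27 (adjusted p = 0.0308). The core subunits Smarcb1, Smarcc1 and Smarcc2 differed by -0.16, -0.11 and -0.088 on the log2 scale, without overlap between treatments (adjusted p = 0.158 to 0.409). Smarcd2, Smarcd3 and Smarce1 differed by -0.031, 0.037 and 0.038. Smarca2 (BRM), the ATPase that replaces Smarca4 in many differentiated cells, lay at the 23rd percentile of level of all probe sets and differed by -0.055 ± 0.059 (SE).

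Of the other SNF2-family ATPases, 1 of 4 fell, where 4.34% of all genes fell. Hells (probe set 10462973), also called LSH, supports DNA methylation of repeats. Its log2 levels were 10.86, 10.84 and 10.86 with CHIR99021, against 10.97, 11.21 and 11.26 with XAV939. All CHIR99021 arrays lay below the lowest XAV939 array, which was replicate 1. Hells fell by 0.30 on the log2 scale (SE 0.074, adjusted p = 0.0300), and the call was lost without any 1 array other than XAV939 replicate 1 (adjusted p = 0.0832 to 0.115). Atrx, which places histone H3.3 in heterochromatin, differed by 0.10 ± 0.07 (SE, log2). Smarcad1, a remodeller that maintains silent chromatin through replication, differed by -0.12 ± 0.07, and by -0.19 without XAV939 replicate 1 (adjusted p = 0.0419). Smarcal1, an annealing helicase of stalled replication forks, differed by 0.018 ± 0.061.

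Among the ARID3, ARID4 and ARID5 genes, 0 of 7 passed in limma, and 0 had an unadjusted p under 0.05, against 20.6% of all genes. Arid3a and Arid3b, relatives of the fly gene dead ringer, differed by 0.17 and 0.10 on the log2 scale and Arid3c by -0.015. Arid4a and Arid4b, which act with the Sin3 deacetylase complex, differed by 0.025 and -0.16. Arid4b depended on XAV939 replicate 1, without which it was -0.26 (adjusted p = 0.0140). Arid5a, an RNA-binding protein, and Arid5b, a partner of a histone demethylase, differed by 0.018 and -0.012. Within treatments the median SD of a member was 0.055 log2 units with CHIR99021 and 0.074 with XAV939, and the widest were those of Arid3a (0.21 with CHIR99021) and Chd6 (0.23 with XAV939).

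To ask whether paralogues changed unequally, the level of one gene minus that of another was taken within each array for 12 pairs and compared between treatments. Constant probe effects cancel between treatments, but the compression of dim genes by RMA does not. Some pairs differ widely in percentile of level, such as Smarca2 (23.0) and Smarca4 (92.5), or Chd5 (55.1) and Chd4 (97.0). The part of compression in unequal changes was not tested. With 3 arrays per treatment the exact two-sided permutation test cannot give a p below 0.1 (0.15 after adjustment over the 12 pairs), so no pair could pass. The arrays did not overlap in 8 of the 12 pairs, against 29.8% of all pairs of genes on the arrays. Several pairs share a gene, and the pairs were chosen with results known. The change was -1.25 ± 0.07 log2 units (SE from the arrays, n = 3 each) for Smarca1 minus Smarca5, 0.75 ± 0.09 for Chd3 minus Chd4 and -0.56 ± 0.08 for Chd7 minus Chd8. In these pairs 1 gene carried most of the change. Smaller changes without overlap were found for Smarcd1 minus Smarcd3 (-0.26 ± 0.07), Arid1a minus Arid1b (-0.25 ± 0.03), Chd1 minus Chd2 (-0.20 ± 0.06), Smarcd1 minus Smarcd2 (-0.19 ± 0.04) and Chd4 minus Chd5 (-0.056 ± 0.019). The arrays overlapped for Smarca2 minus Smarca4 (0.13 ± 0.06, exact p = 0.2), Smarcd2 minus Smarcd3 (-0.067 ± 0.046, exact p = 0.2), Ep400 minus Srcap (0.10 ± 0.12, exact p = 0.5) and Smarcc1 minus Smarcc2 (-0.024 ± 0.038, exact p = 0.7). Opposite directions with both genes past the threshold were seen in 1 pair, Chd3 and Chd4. The call of Chd4 was lost under 10 of 17 alternatives and that of Chd3 under 1. In the pair Smarca1 and Smarca5, Smarca1 fell and the interval of Smarca5 spanned 0.

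**Figure D4:**
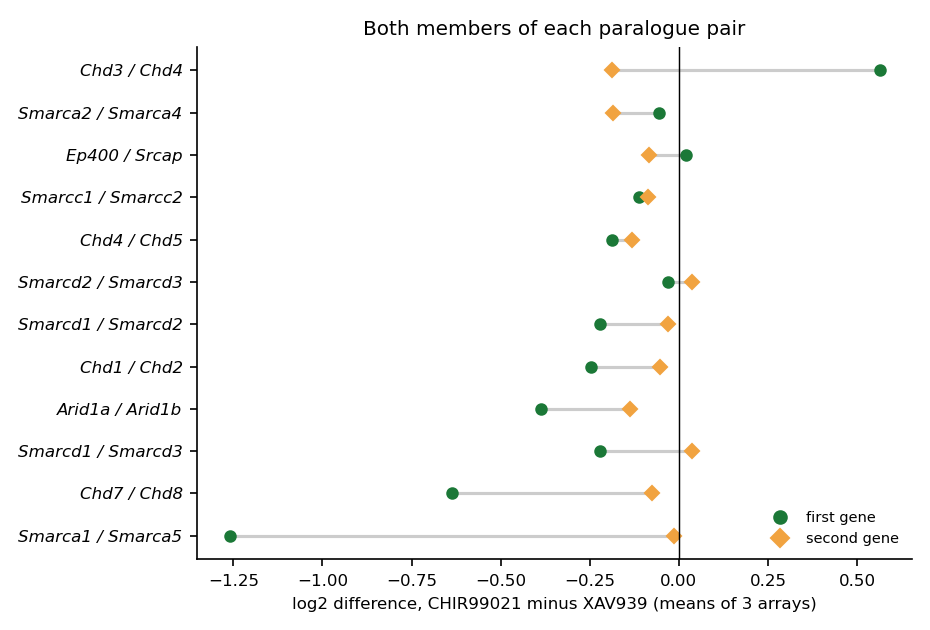
Log2 difference, CHIR99021 minus XAV939 (means of 3 arrays per treatment), of the first (circle) and second gene (diamond) of 12 paralogue pairs, joined by a line. The longest lines are those of Smarca1 and Smarca5 and of Chd3 and Chd4, and Chd3 and Chd4 lie on opposite sides of 0.

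Genes for partner proteins of these complexes, which the name rule leaves out, were examined in 5 lists of 76 measured genes in all. Of the 76, 2 rose, 6 fell and 68 did not pass, shares of 2.63% and 7.89% beside 5.31% and 4.34% of all genes. Among SWI/SNF partners 1 of 18 fell, Bcl11a, a zinc finger protein of lymphoid and neural SWI/SNF complexes (-0.46 ± 0.05, SE, log2). With CHIR99021 the log2 levels of Bcl11a (5.68, 5.61 and 5.63) lay below the array medians over genes (6.07, 6.07 and 6.09). Among ISWI partners 1 of 10 fell, Baz1a, which pairs with Smarca5 in the ACF complex (-0.47 ± 0.08), and 2 rose, Baz2b (0.25 ± 0.05) and the histone-binding protein Rbbp7 (0.25 ± 0.06). Among NuRD partners 2 of 12 fell, Cdk2ap1 (-0.50 ± 0.07) and Mta3 (-0.41 ± 0.05), and Rbbp7, which is shared with the ISWI list, rose. Among 24 partners of INO80, SRCAP and TIP60, among them the ATPases Ruvbl1 and Ruvbl2, 0 passed in limma and 0 had an unadjusted p under 0.05, against 20.6% of all genes. Among all genes 9.65% passed in either direction. Of 14 further SNF2-family ATPases and partners of Atrx and Hells, 2 fell, Hltf, a remodeller of stalled replication forks (-0.53 ± 0.08), and Ttf2, a transcription termination factor (-0.35 ± 0.05), and 13 of the 14 differences were negative. Daxx, the partner of Atrx, differed by -0.12 ± 0.05 and Cdca7, the partner of Hells, by -0.059 ± 0.063. The list medians were -0.091 for SWI/SNF partners, 0.039 for ISWI partners, -0.026 for NuRD partners, -0.0020 for INO80-type partners and -0.086 for the last list, beside 0.0066 for all genes.

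**Figure D5:**
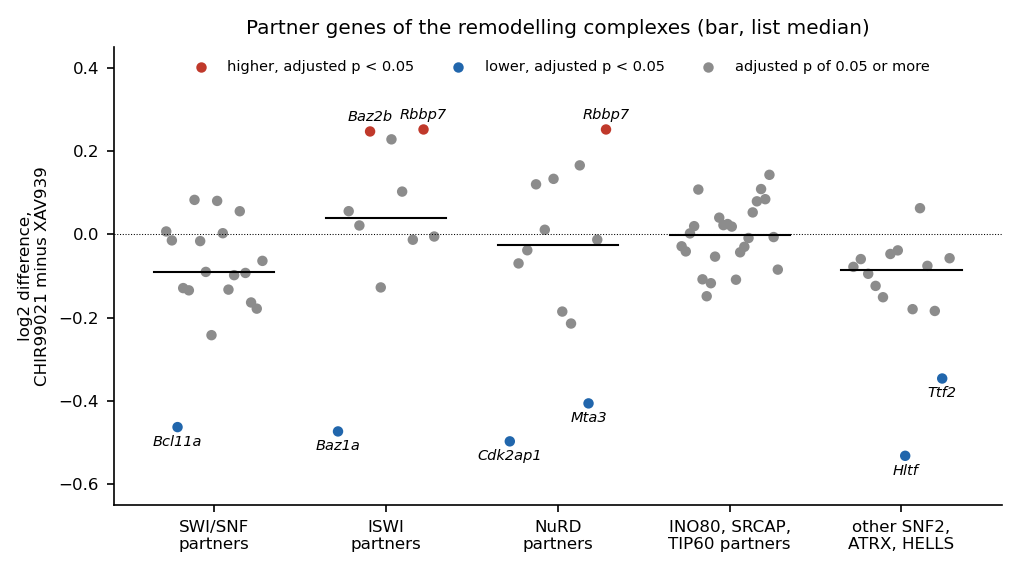
Log2 difference, CHIR99021 minus XAV939 (vertical axis), of the partner genes in 5 lists (points; bars are list medians; Rbbp7 stands in 2 lists). The 8 coloured genes are the 2 that rose and the 6 that fell, and the 24 INO80, SRCAP and TIP60 partners all lie between -0.15 and 0.14.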

How the data were processed

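Each probe set of the deposited table has 1 log2 value per array, computed by the authors with RMA according to the submitters' processing notes. Neither its version nor a genome build was given in the sources used here. Per the labels' protocols, TRIZOL and a column kit served to extract RNA, and 300 ng went into Affymetrix whole-transcript labelling. Of 34760 probe sets, the platform annotation gave 21640 with 1 gene and 1321 with several (not used for genes), and 11799 had no gene name here. A gene was represented by its single-gene probe set whose mean over all arrays was highest (19937 genes), and all 41 members matched RefSeq by Entrez identifier. RMA compresses differences of dim genes. Scanner files were not used, so no detection call or scan batch was examined. The number of arrays limits the precision.

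CHIR99021 minus XAV939 was fitted on all genes with limma 3.58.1 (lmFit, eBayes) in R 4.3.3, without a block, with Benjamini-Hochberg adjustment over all genes and a threshold of 0.05; residual and prior degrees of freedom were 4 and 6.15. The fit was tested on simulated data. Plots used matplotlib 3.10.9. All members, and up to 5 genes per direction of each partner list, were named by rule; partner lists held 78 symbols, of which 2 had no value. The members and lists were chosen with earlier results of these data known. Alternatives were 16 settings, plus the joint removal of XAV939 replicate 1 and CHIR99021 replicate 3, chosen after seeing the data.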

Additional observations from a re-analysis of the deposited data

How the results depend on the processing

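With 3 arrays per treatment, changes of the size of Chd4 or Chd1 lie at the edge of what these arrays can call. Of the 11 members past the threshold, 5 kept their call under all 17 alternatives, 6 lost it under at least 1 and 0 changed sign. The number of members lower with CHIR99021 was 10; it was 5 at an adjusted p of 0.01, 5 when all probe sets were tested, and 6 to 14 with 1 array, or XAV939 replicate 1 and CHIR99021 replicate 3 together, left out. The number higher was 1, and 0 with ordinary least squares, where the adjusted p of Chd3 was 0.0769. The number of all genes called was 1924. It was 639 with ordinary least squares, 1118 at an adjusted p of 0.01, and 1254 to 2325 with the same arrays left out. When all 34760 probe sets were tested, 1307 were called. These totals hold both directions, and the share of all genes lower was not counted under the alternatives. Centring each array on its median ended the calls of Chd1 (adjusted p = 0.0536) and Chd4 (0.0509) and made Smarcd1 pass (0.0482).

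Replicate numbers are shared by the treatments, but arrays of the same number did not deviate together (r = -0.096, 0.060 and -0.14 across genes). Of the 6 arrays, 0 correlated best with their own number. The largest correlation between treatments was 0.18, between CHIR99021 replicate 3 and XAV939 replicate 1, the arrays that were also left out jointly. With the replicate number as a block, 8 members were lower, 1 was higher and 1578 genes were called; Chd1 and Chd4 were no longer past the threshold (adjusted p = 0.0637 and 0.0918).

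Of the 30 other members, 5 passed under at least 1 alternative (Smarcd1, Chd6, Smarcad1, Arid4b and, with ordinary least squares at adjusted p = 0.0305, Chd5), and 12 changed sign under at least 1 alternative, all by leaving out arrays and none while past the threshold. With 1 array or both of these arrays left out, the log2 difference ranged from -0.0042 to 0.083 for Smarcd3, -0.0086 to 0.072 for Smarce1, -0.12 to 0.051 for Smarca5, -0.16 to 0.020 for Chd2, -0.079 to 0.0076 for Ino80c, -0.050 to 0.080 for Ep400, -0.13 to 7.6e-04 for Srcap, -0.041 to 0.067 for Smarcal1, -0.046 to 0.031 for Arid3c, -0.086 to 0.087 for Arid4a, -0.057 to 0.13 for Arid5a and -0.078 to 0.034 for Arid5b. Ep400 minus Srcap was -0.051 without XAV939 replicate 1 and CHIR99021 replicate 3. The causes were not tested.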
